A study of Rattus norvegicus with 64 samples.

Results

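Blood vessels of the postnatal rat entorhinal cortex were followed through 45 genes of endothelial cells, pericytes and smooth muscle, set in 6 roles: blood-brain barrier genes, endothelial surface and secreted proteins, endothelial transcription factors, angiogenic receptors, angiogenic ligands, and mural genes (pericytes and smooth muscle). The genes were chosen by name. Of the 45, 43 had a row among the 17260 genes of the count tables, while Mmrn2 and Ptprb had none and were not analysed here. Robo4 was counted 0 to 7 times per library, with 5 libraries at 0, and fell below the filter on low counts, which left 42 members among 12521 tested genes. Its row also spans both strands of chromosome 8 (Rn6 39083327 to 39888918), so its reads may come from more than 1 locus.

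Total RNA depleted of ribosomal RNA was sequenced from Long Evans rats at P2, P9, P23, and P45. Tissue was cut by hand from brain sections of the medial and the lateral entorhinal cortex (MEC and LEC) as layer II (LII) or layers III to VI (LDeep), a step the methods describe for the MEC. Each of the 16 groups of 1 region, layer, and age had 5 libraries at P2, 4 at P9, 3 at P23, or 4 at P45, giving 64 libraries with 3894334 to 11439143 counts (median 7569158). The labels name no genotype or treatment, and the methods describe decapitation under isoflurane and no perfusion, so blood may have stayed in the vessels. LII lies nearer than LDeep to the brain surface, where meninges and pial vessels lie. In such bulk tissue a lower level can mean fewer cells of a type or less RNA per cell, and these cannot be told apart.

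Endothelial cells of the brain are joined by tight junctions and carry transporters that move glucose and amino acids inwards and pump foreign compounds out, which together form the blood-brain barrier. Growing vessels are guided by VEGF and angiopoietin ligands through receptors on the endothelium, and quiet as they mature. Pericytes sit on capillaries, and smooth muscle cells with contractile proteins wrap arteries and arterioles.

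Levels are given as log2 CPM (counts scaled by the TMM-adjusted library size, prior count 2), and differences as log2 fold change (LFC) with its standard error. A gene is called changed at a Benjamini-Hochberg (BH) adjusted p below 0.05 over all 12521 genes in the quasi-likelihood test of edgeR. Per kilobase of exon, the members differed widely in abundance. Rgs5, a pericyte regulator of G protein signalling, had the highest mean of the members with 91.2 CPM per kb, followed by the tight junction protein Cldn5 with 75.6 and Ramp2, an accessory subunit of the adrenomedullin receptor, with 50.9. Placenta growth factor (Pgf, 1.08 CPM per kb) and the fenestral diaphragm protein Plvap (1.25) had the lowest means among the tested members. The neighbours Fli1 (Rn6 chromosome 8, 33543220 to 33661049, minus strand) and Ets1 (33816386 to 33879625, plus strand) encode related ETS factors.

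Promoter windows show the sequences behind a contractile and 3 endothelial members described below. RefSeq (build GRCr8) gave a window for 27 of the 45 members (29 windows), and the 250 bases before the annotated start are used. The motifs were searched on both strands, and the genes printed were chosen after their matches had been seen. In Acta2, smooth muscle actin, capitals mark CArG boxes, the site of serum response factor, searched as CCNNNNNNGG with at most 1 inner G or C. In Flt1 and Tie1, receptors of the endothelium, and in Plvap capitals mark the ETS core GGAAG or its reverse complement CTTCC.
Acta2: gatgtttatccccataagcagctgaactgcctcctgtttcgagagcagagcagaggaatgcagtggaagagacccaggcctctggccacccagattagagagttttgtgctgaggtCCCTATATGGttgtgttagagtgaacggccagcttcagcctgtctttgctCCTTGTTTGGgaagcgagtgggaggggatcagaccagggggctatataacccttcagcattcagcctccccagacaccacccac
Flt1: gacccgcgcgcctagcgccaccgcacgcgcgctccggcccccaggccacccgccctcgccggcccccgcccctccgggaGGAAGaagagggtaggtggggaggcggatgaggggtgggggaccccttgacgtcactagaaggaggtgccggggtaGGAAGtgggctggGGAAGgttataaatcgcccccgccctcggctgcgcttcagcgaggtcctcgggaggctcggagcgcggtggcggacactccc
Tie1: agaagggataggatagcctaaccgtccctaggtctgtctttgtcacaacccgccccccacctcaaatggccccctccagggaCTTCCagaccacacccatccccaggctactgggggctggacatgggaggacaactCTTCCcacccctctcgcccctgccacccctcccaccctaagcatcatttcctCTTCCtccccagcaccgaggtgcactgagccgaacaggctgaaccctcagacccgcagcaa
Plvap: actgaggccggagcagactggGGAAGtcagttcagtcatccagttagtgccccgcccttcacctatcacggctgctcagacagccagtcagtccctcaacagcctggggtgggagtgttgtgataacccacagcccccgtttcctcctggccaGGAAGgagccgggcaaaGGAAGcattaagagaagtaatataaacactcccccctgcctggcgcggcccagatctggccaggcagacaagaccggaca
The windows lie at chr1:241172504-241172753 (minus strand), chr12:12333180-12333429 (plus strand), chr5:137304982-137305231 (minus strand) and chr16:18231280-18231529 (minus strand). Acta2 was the member with 2 such CArG boxes, which 0.693% of all 33469 promoter windows hold, and 1 of them overlaps an ETS core. At least 1 CArG box stood in 5 of the 29 member windows and in 8.08% of all windows. An ETS core is common, with at least 1 in 18 of the 29 member windows and in 63.3% of all. At least 3 cores stood in 3 member windows, those printed, and in 10.9% of all. A match is a description of letters, not a binding site.

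Neuronal marker genes summed to 5860 to 9511 CPM in the libraries, and every tested member except Acta2 had counts in each of them. The dissection was checked by layer marker genes, and 3 libraries of the MEC at P2 stood apart from their labels. The library labelled LII replicate 1 had 433 CPM of Zic1 (12.2 to 26.0 in the 8 other LII libraries of that age), and its 16 meningeal fibroblast markers summed to 165 CPM (1132 to 2081). LII replicate 3 had 35.5 CPM of the deep layer gene Fezf2 (1.26 to 10.7 in those 8 libraries) and a meningeal sum of 177 CPM. The library labelled LDeep replicate 1 had 717 CPM of the LII gene Reln (202 to 386 in the 9 other LDeep libraries) and a meningeal sum of 1526 CPM (159 to 231). Counts of called members in comparisons with P2 libraries, and differences tested between ages or regions, are given with and without these 3 libraries, while levels and other LFCs are from all libraries unless stated. This choice was made after the data had been seen and in part on the meningeal sum.

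Between the younger (P2/P9) and the older ages (P23/P45), the barrier transporters Abcg2, Abcb1a, and Slc2a1 and the 4 contractile genes of smooth muscle rose, while Ramp2, Kdr, Slc7a5, and Ets1 fell. Of the 42 tested members, 33 were called, 21 higher and 12 lower at the older ages. Of all tested genes 81.6% were called, 41% higher and 40.6% lower. The median LFC was 0.15 over the members and 0.01 over all genes. Without the 3 MEC libraries 33 members were called as well (82.7% of genes). When the libraries of 1 replicate number at an age were summed, 32 members were called (77.3% of genes in that fit). The steps differed in size: 19 members were called from P2 to P9 (16 higher), where 63.4% of genes were (31.6% higher), 28 from P9 to P23 (18 higher), where 64.6% were (32.5% higher), and 1 from P23 to P45, where 3.85% were. Without the 3 MEC libraries the first of these counts was 23 (65% of genes), and the last was 6 (5.85% of genes), Nos3, Abcc9, Ets1, Esam, Erg, and Cd34. DESeq2 called 2 (4.68% of genes) and limma 3 members (4.35%) in that last step. Each library counts as independent in these fits, although libraries of 1 age that share a replicate number may come from the same animals.

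**Figure D1:**
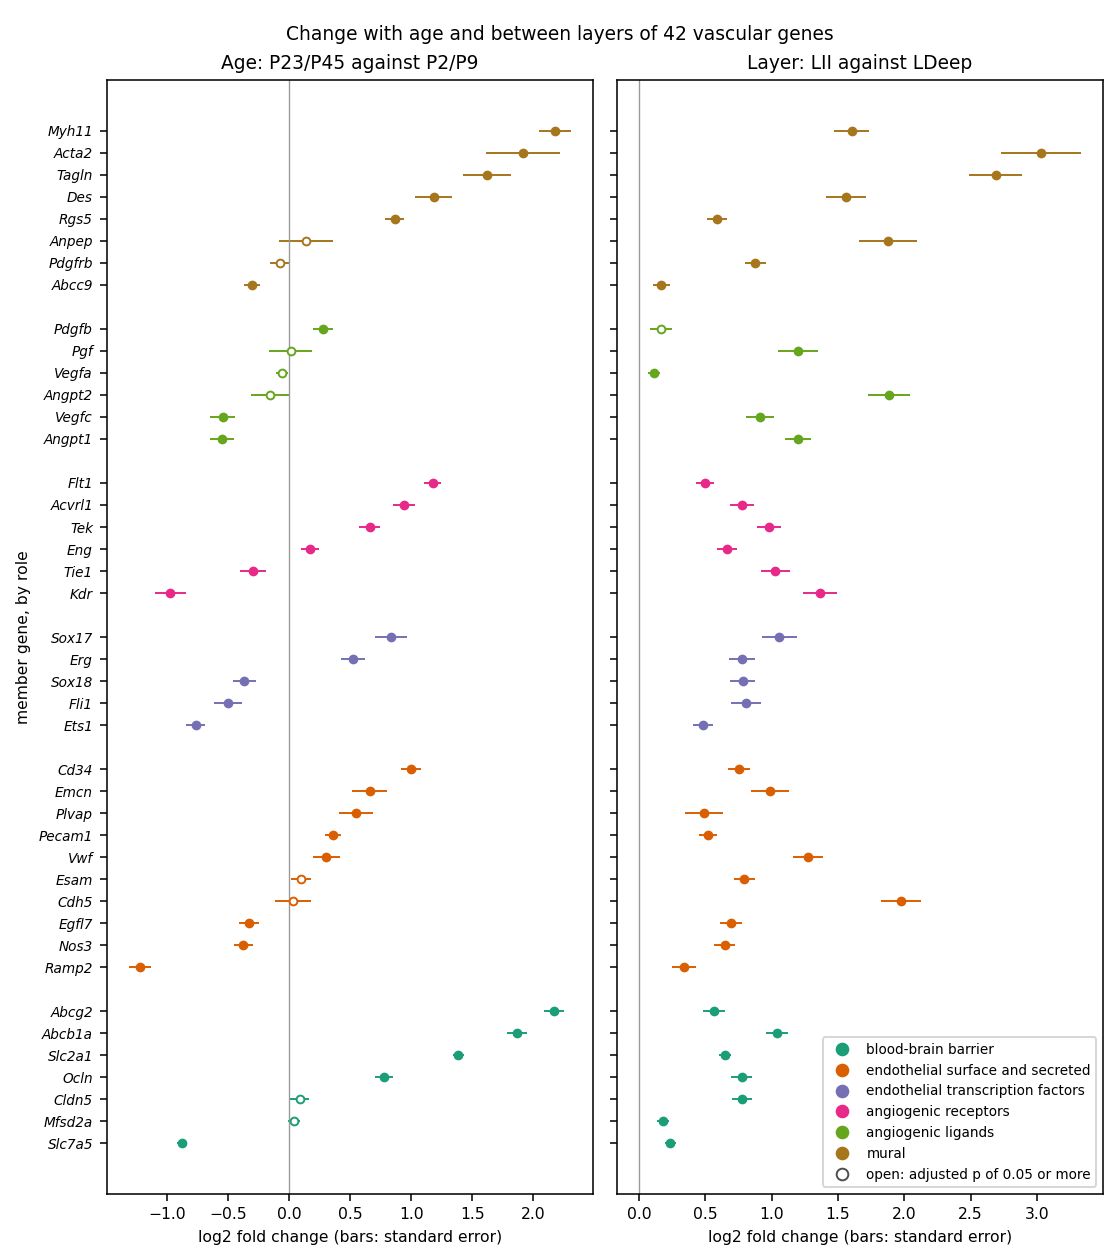
Log2 fold change of each of 42 members with age (left) and between layers (right), by role. Points are edgeR estimates, bars 1 standard error, and open points have an adjusted p of 0.05 or more. The age changes run from -1.22 (Ramp2) to 2.18 (Myh11), while all layer estimates are above 0.

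Among the 7 barrier genes, 4 were called higher at the older ages, 1 lower, and 2 not called. Abcg2 and Abcb1a, efflux pumps that return drugs to the blood, changed most. For Abcg2, P2 libraries ranged from 1.33 to 4.52 around a median of 3.29, and those of P9 from 2.88 to 4.45 around 3.47. The older libraries ranged from 5.21 to 6.01 at P23 (median 5.54) and from 4.43 to 5.94 at P45 (median 5.49). All P23 libraries were above all P2 and P9 libraries. The LFC of Abcg2 was 2.17 ± 0.085, or 4.49-fold (BH 6.48e-30). Most of it lay between P9 and P23, with an LFC of 2.07 ± 0.13 (BH 1.16e-20) against 0.36 ± 0.12 between P2 and P9 (BH 0.00809).

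Abcb1a, a P-glycoprotein gene whose paralog Abcb1b may share reads with it, ranged over 2.77, 4.01, and 4.98 at P2 and 3.31, 4.39, and 5.54 at P9, and over 5.34, 6.07, and 6.82 at P23 and 5.43, 6.16, and 6.75 at P45 (lowest, median, highest). The age groups overlapped only where the highest P9 libraries met the lowest older ones. Its LFC was 1.86 ± 0.081 (BH 4.75e-28), with 1.64 ± 0.12 from P9 to P23.

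Slc2a1, the glucose transporter GLUT1, and Slc7a5, a large neutral amino acid transporter, moved in opposite directions. Over the 36 younger libraries Slc2a1 lay between 4.92 and 6.16 (median 5.48), and over the 28 older libraries between 6.30 and 7.55 (median 6.98). It was the sole tested member with every older library above every younger one, a pattern of 3.60% of all tested genes. Slc7a5 lay between 7.16 and 8.16 in the younger and between 6.46 and 7.07 in the older libraries, and was the sole member with every older library lower, as were 3.82% of genes. Their LFCs were 1.38 ± 0.045 (BH 7.30e-34) and -0.88 ± 0.040 (BH 3.76e-27). The step differed too, since Slc2a1 had an LFC of -0.06 ± 0.060 from P2 to P9 (BH 0.419), whereas Slc7a5 fell by 0.41 there (BH 1.45e-09).

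The junction genes divided. Ocln, occludin, rose with an LFC of 0.77 ± 0.075 (BH 1.18e-13), whereas Cldn5 had medians of 6.20, 6.65, 6.86, and 6.56 at P2, P9, P23, and P45 and an LFC of 0.08 ± 0.075 (BH 0.309). Mfsd2a, a lipid transporter that keeps transcytosis low, had an LFC of 0.04 ± 0.046 (BH 0.449), with medians between 4.74 and 4.94 at the 4 ages.

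**Figure D2:**
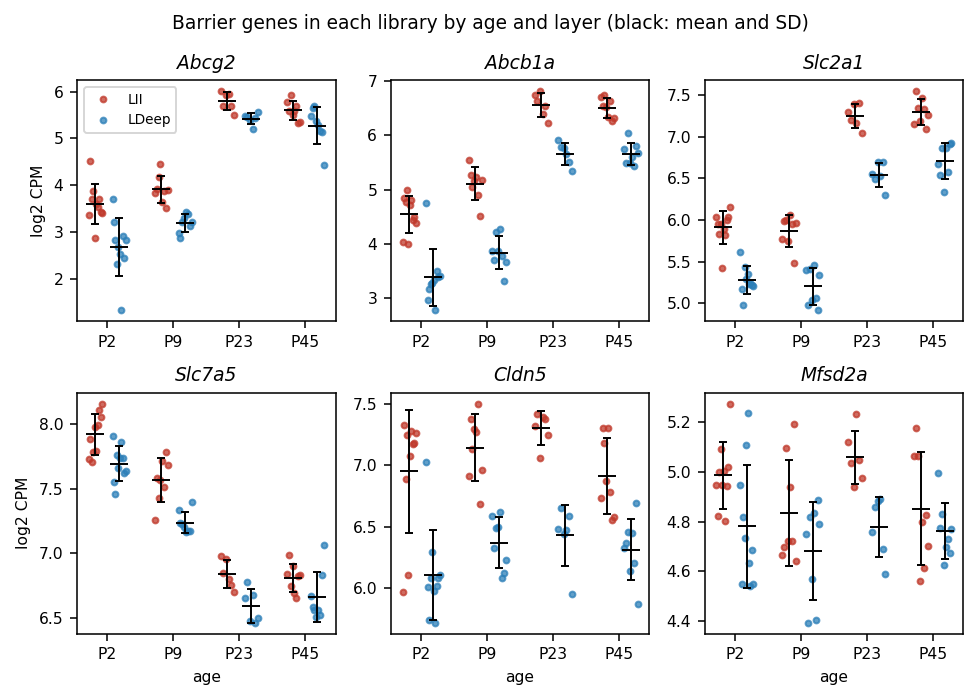
Level of 6 barrier genes (log2 CPM) in each of 64 libraries by age, with LII in red and LDeep in blue. Black bars are mean and SD. Abcg2, Abcb1a and Slc2a1 step up between P9 and P23, Slc7a5 steps down, and the age medians of Mfsd2a stay between 4.74 and 4.94.

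Of the 16 other barrier genes tested, 7 were higher and 6 lower at the older ages, with a median LFC of 0.05. The largest change was a fall of Slc38a5, a glutamine transporter (LFC -2.45 ± 0.11, BH 2.01e-27). Among 10 genes of Wnt signalling and transcription tied to the barrier, 3 were higher and 4 lower.

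Of the 10 surface and secreted genes tested, 5 were called higher and 3 lower. Ramp2 showed the largest change. Its P2 libraries ranged from 3.56 to 6.18 around a median of 5.80, and those of P9 from 4.80 to 6.05 around 5.49. The older libraries ranged from 3.75 to 4.92 at P23 (median 4.27) and from 3.94 to 5.05 at P45 (median 4.41). Apart from 1 library at P2, the MEC LII replicate 1 named above, the younger libraries were at 4.80 or more. The LFC was -1.22 ± 0.093 (BH 1.25e-17), with -1.18 ± 0.14 from P9 to P23.

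Cd34, a sialomucin of endothelial and progenitor cells, rose by an LFC of 1.00 ± 0.082 (BH 2.17e-16), from medians of 3.10 and 3.85 at P2 and P9 to 4.52 and 4.93 at P23 and P45. The groups overlapped, with libraries up to 4.64 at P2 and down to 3.44 at P23. Emcn (0.66), Plvap (0.55), Pecam1 (0.36), and Vwf (0.30) also rose on the LFC scale, and Nos3, endothelial nitric oxide synthase (-0.38), and Egfl7 (-0.33) fell. The junction proteins VE-cadherin (Cdh5) and Esam had LFCs of 0.03 ± 0.15 (BH 0.869) and 0.09 ± 0.081 (BH 0.289).

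All 5 transcription factors were called, in both directions. Sox17 is a factor of arterial endothelium. Its P2 libraries ranged from -0.48 to 3.39 around a median of 1.89, and those of P9 from 1.38 to 3.55 around 2.81. The older libraries ranged from 2.17 to 3.76 at P23 (median 3.21) and from 2.52 to 4.08 at P45 (median 3.14). The younger libraries spread widely and overlapped the older ones (LFC 0.84 ± 0.13, BH 1.06e-07). Ets1 went the other way, from medians of 5.54 and 5.51 at P2 and P9 to 4.88 and 4.67 at P23 and P45 (LFC -0.77 ± 0.077, BH 2.73e-13). The other ETS factors split, with Erg higher (0.52 ± 0.099, BH 5.00e-06) and Fli1 lower (-0.50 ± 0.11, BH 7.63e-05). Sox18 was lower as well (-0.37 ± 0.094, BH 0.000345).

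All 6 tested receptors were called, 4 higher and 2 lower. The 2 VEGF-A receptors separated: Flt1 (VEGFR1), which binds VEGF without strong signalling, rose, and Kdr (VEGFR2), the main signalling receptor, fell. For Flt1, P2 libraries ranged from 4.02 to 5.44 around a median of 4.84, and those of P9 from 4.51 to 5.66 around 5.16. The older libraries ranged from 5.72 to 6.74 at P23 (median 6.15) and from 5.59 to 6.50 at P45 (median 6.12). Of the younger and older libraries only some at P9 and P45 met, between 5.59 and 5.66. Its LFC was 1.17 ± 0.068 (BH 1.29e-22).

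Kdr had medians of 5.11, 5.39, 4.34, and 4.15 at P2, P9, P23, and P45, with ranges of 4.12 to 6.67, 4.62 to 6.64, 3.54 to 6.01, and 2.69 to 5.67. These ranges overlapped, and the LFC was -0.98 ± 0.13 (BH 1.27e-09). Acvrl1 (ALK1, 0.94 ± 0.090), Tek (TIE2, 0.66 ± 0.087), and Eng (endoglin, 0.17 ± 0.073, BH 0.0295) rose, and Tie1 fell (-0.30 ± 0.11, BH 0.00953).

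Of the 6 ligands, 1 was higher, 2 lower, and 3 not called. Vegfc, the lymphangiogenic VEGF, fell from medians of 2.30 and 1.99 at P2 and P9 to 1.60 and 1.61 at P23 and P45, with overlapping ranges (LFC -0.55 ± 0.10, BH 4.37e-06). Angpt1, the agonist of TIE2, had an LFC of -0.55 ± 0.10 (BH 1.76e-06), which in LII samples alone was 0.02 (BH 0.903). Pdgfb, the endothelial signal that recruits pericytes, rose (0.27 ± 0.081, BH 0.00187), and Vegfa had an LFC of -0.06 ± 0.049 (BH 0.222). The rise of Pdgfb lay between P2 and P9 (LFC 0.84), with -0.16 from P9 to P23 and 0.03 from P23 to P45. Of 21 other angiogenic genes tested, 8 were higher and 12 lower. The largest change was that of Esm1, an endothelial secreted proteoglycan (LFC -2.69 ± 0.36, BH 5.08e-09).

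Among the 8 mural genes, 5 were called higher, 1 lower, and 2 not called, with a median LFC of 1.02. The contractile genes led. Myh11 encodes the myosin heavy chain of smooth muscle. Its P2 libraries ranged from 2.04 to 4.27 around a median of 2.85, and those of P9 reached 4.63 around a median of 3.01. The older libraries ranged from 3.32 to 7.01 at P23 (median 4.71) and from 3.87 to 7.73 at P45 (median 5.17). Its LFC was 2.18 ± 0.13, or 4.52-fold (BH 5.47e-22). Acta2 ranged from -1.91, which stands for 0 counts in 6 libraries, to 3.20 at P2 and P9 and from -0.27 to 5.20 at P23 and P45. The groups overlapped, and the LFC was 1.91 ± 0.31 (BH 1.34e-07).

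Tagln, transgelin, and Des, desmin, rose with them, with LFCs of 1.62 ± 0.20 and 1.18 ± 0.15 (BH 9.52e-11 and 4.77e-10). The pericyte genes were less uniform. Rgs5 rose (0.86 ± 0.077, BH 5.39e-15), by 0.79 ± 0.10 from P2 to P9 and by 0.56 ± 0.12 from P9 to P23. Pdgfrb, the receptor of PDGF-B, had an LFC of -0.08 ± 0.079 (BH 0.355) and Anpep, aminopeptidase N, one of 0.14 ± 0.22 (BH 0.565). Abcc9, a subunit of the vascular ATP-sensitive potassium channel, fell (-0.31 ± 0.063, BH 1.84e-05), and it was the member called between P23 and P45 (LFC -0.69 ± 0.094, BH 1.12e-06). Of 17 other mural genes, 9 rose and 4 fell, led by Lmod1, a smooth muscle leiomodin (LFC 4.13 ± 0.23, BH 3.53e-23).

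Markers of other cells moved with age in the same libraries. Of 8 astrocyte markers 7 were called higher at the older ages (1 lower), as were 8 of 8 oligodendrocyte, 7 of 8 microglial, and 7 of 7 red blood cell markers, and 4 of 16 meningeal fibroblast markers (2 lower). Red blood cell markers summed to 303 to 1043 CPM at P2, 987 to 3069 at P9, 1724 to 4597 at P23, and 412 to 2054 at P45. Their part in the age changes of the members was not tested.

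Between the layers the direction was nearly uniform. Of the 42 tested members 41 were called higher in LII and 0 lower, where 23.5% of all tested genes were called higher in LII. Without the 3 MEC libraries all 42 were called higher (24.5% of genes). The member not called, Pdgfb, had an LFC of 0.17 ± 0.081 (BH 0.0793). Over the members the median LFC was 0.78, against -0.05 over all genes. At single ages 34, 37, 32, and 33 members were called higher at P2, P9, P23, and P45 (10.8%, 16.7%, 14.8%, and 14.4% of all genes) and 0 lower. Without the 3 MEC libraries the count at P2 was 36 (12.6% of genes). Over all ages DESeq2 called 41 members (24.7% of genes higher in LII) and limma 39 (19.8%), and edgeR with the replicate number as a fixed block called 41 (24.3%). With region kept separate, 40 members were called higher in the MEC (19.7% of genes) and 38 in the LEC (18.5%).

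Levels of many members did not overlap between the layers. For 18 members every LII library of P9 lay above every LDeep library (5.24% of all tested genes). The same held for 28 members among P23 libraries (9.66%) and for 14 among P45 libraries (4.20%). At P2 this held for 0 members with all libraries (0.0559% of genes) and for 29 without the 3 MEC libraries (4.62%).

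Among barrier genes, all 7 were called higher in LII, from 0.18 ± 0.046 for Mfsd2a (BH 0.000741) to 1.04 ± 0.081 for Abcb1a (BH 5.31e-16). At P9 Abcb1a in LII lay between 4.51 and 5.54 with a median of 5.17, and in LDeep between 3.31 and 4.28 with one of 3.82. At P23 it ran from 6.23 to 6.82 (6.59) and from 5.34 to 5.92 (5.70), and at P45 from 6.27 to 6.75 (6.54) and from 5.43 to 6.05 (5.63). At these ages the layers did not overlap. At P2 they ran from 3.99 to 4.98 in LII and from 2.77 to 4.74 in LDeep, or to 3.50 without the LDeep replicate 1 of the MEC. Cldn5 was next (0.78 ± 0.076, BH 7.93e-13), with medians of 7.18, 7.20, 7.35, and 6.83 in LII and of 6.05, 6.41, 6.47, and 6.35 in LDeep at the 4 ages.

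All 10 surface and secreted genes were called higher in LII. Cdh5 had the largest difference, 1.98 ± 0.15 or 3.94-fold (BH 1.88e-16), and 2.18 ± 0.090 without the 3 MEC libraries. At P9 LII ran from 4.57 to 5.56 (median 5.23) and LDeep from 2.46 to 4.03 (2.98). At P23 the ranges were 4.46 to 5.59 (5.31) against 2.87 to 3.41 (3.10), and at P45 3.96 to 5.49 (5.24) against 2.85 to 3.85 (3.20). The layers stayed apart at each of these ages. Vwf, von Willebrand factor, followed (1.28 ± 0.11, BH 2.22e-14). Pecam1, a marker of endothelium in general, differed less, by 0.52 ± 0.068 (BH 4.83e-09).

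The 5 transcription factors were called higher in LII by 0.49 to 1.06, with Sox17 (1.06 ± 0.13, BH 1.54e-09) and Fli1 (0.81 ± 0.11, BH 2.62e-08) at the top. Among receptors Kdr (1.37 ± 0.13, BH 2.30e-13) and Tie1 (1.03 ± 0.11, BH 5.29e-12) differed most. Kdr medians were 6.10, 6.06, 5.38, and 5.17 in LII and 4.49, 4.89, 3.83, and 3.36 in LDeep, lower at the older ages in each layer. LII and LDeep libraries of Kdr did not overlap at P9 and P23, where the lowest LII library was at 5.52 and 4.48 and the highest LDeep library at 5.26 and 4.21.

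Ligands covered a wide range. Angpt2, a context-dependent TIE2 ligand of remodelling vessels, was higher in LII by 1.88 ± 0.16 (BH 5.19e-15), Pgf by 1.20 ± 0.15 (BH 1.63e-09), and Angpt1 by 1.20 ± 0.10, while Vegfa, which neurons and astrocytes also make, differed by 0.11 ± 0.049 (BH 0.0428).

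The largest layer differences were those of contractile mural genes. Acta2 had an LFC of 3.03 ± 0.30, or 8.18-fold (BH 1.36e-12), and 3.57 ± 0.25 without the 3 MEC libraries. Tagln had an LFC of 2.69 ± 0.20, or 6.46-fold (BH 8.02e-17). At P23 the lowest, median, and highest Acta2 level was 3.29, 3.91, and 5.08 in LII and -0.27, 0.60, and 1.71 in LDeep, and that of Tagln was 5.17, 5.70, and 6.54 against 1.81, 2.58, and 2.94. LII thus held every Acta2 and Tagln library above LDeep at that age. Anpep (1.88 ± 0.22), Myh11 (1.61 ± 0.13), and Des (1.56 ± 0.15) followed, then the pericyte genes Pdgfrb (0.88 ± 0.079) and Rgs5 (0.59 ± 0.078), with Abcc9 at 0.17 ± 0.063 (BH 0.0193).

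Genes outside the members leaned the same way. In LII 10 of 16 other barrier genes (0 lower), 9 of 10 Wnt and transcription genes (1 lower), 12 of 21 other angiogenic genes (1 lower), and 15 of 17 other mural genes (1 lower) were called higher. By size of LFC the lists were led by Lsr, a tricellular junction receptor (1.00 ± 0.10), Foxc1, a forkhead factor of mural and meningeal cells (2.47 ± 0.19), Figf, the gene of VEGF-D, in the other direction (-3.39 ± 0.30), and Tbx18, a T-box factor of mural cells (3.16 ± 0.28), with BH values of 3.19e-12, 1.69e-16, 3.49e-14, and 2.97e-14.

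Markers of other cells at the brain surface moved with the layer difference. Of 16 meningeal fibroblast markers 15 were called higher in LII and 1 lower, from 4.50 for the anion transporter Slc22a6 to -0.48 for decorin (Dcn) on the LFC scale. Their sum ran from 165 to 2529 CPM (median 1519) in LII and from 135 to 1526 CPM (median 207) in LDeep, and from 390 to 2529 and from 135 to 519 without the 3 MEC libraries. All 6 perivascular macrophage markers, 8 of 10 arachnoid markers (0 lower), 7 of 8 astrocyte markers (0 lower), and 7 of 7 red blood cell markers were also called higher in LII, and none of these lists had a gene at 0 in all libraries. Macrophage markers summed to 4.90 to 111 CPM in LII and 2.98 to 60.6 in LDeep, and red blood cell markers to 328 to 4597 and 303 to 2679. The part of meningeal tissue in the layer difference was not tested as a cause.

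The sums varied among single LII libraries. In MEC LII P45 replicate 4, which also had the highest sum of choroid plexus markers (48.8 CPM), the meningeal sum was 390 CPM, against 1565 to 1809 in the other 3 libraries of its group. Its endothelial members (surface genes, transcription factors, and receptors) summed to 568 CPM, below the 654 to 746 of those libraries and above the 328 to 444 of the LDeep libraries at P45. Its contractile members (Acta2, Tagln, Myh11, and Des) summed to 119 CPM, against 152 to 395 in the other 3 and 24.6 to 40.5 in LDeep at P45. In LEC LII P45 replicate 4 the meningeal sum was 1074 CPM, against 1709 to 2529 in the other 3 libraries of its group. It had 553 CPM of endothelial members (648 to 712 in those 3) and 99.01 CPM of contractile members (149 to 231). LEC LII P23 replicate 3 had a meningeal sum of 1389 CPM, against 1864 and 1157 CPM in replicates 1 and 2 of its group. Endothelial members summed to 556 CPM there (785 and 610) and contractile members to 103 CPM (255 and 124). What links these sums was not tested. The 3 MEC P2 libraries had been set apart in part by their meningeal sum. In the library labelled LDeep replicate 1 of the MEC at P2, the meningeal sum of 1526 CPM went with 648 CPM of endothelial members (287 to 401 in the 9 other LDeep libraries). In LII replicates 1 and 3 sums of 165 and 177 CPM went with 322 and 342 CPM of endothelial members (618 to 758 in the 8 other LII libraries).

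**Figure D3:**
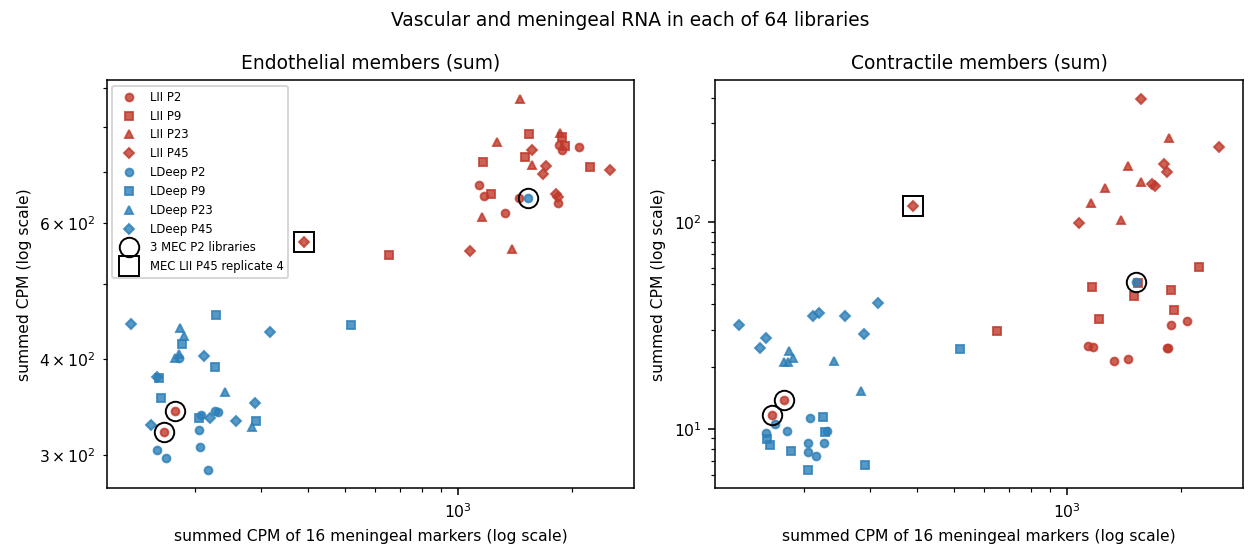
Summed CPM of endothelial members (left) and contractile members (right) against the summed CPM of 16 meningeal fibroblast markers in 64 libraries, log axes, coloured by layer with a symbol per age. Circles mark the 3 MEC P2 libraries that stood apart and the square MEC LII P45 replicate 4. Apart from the marked libraries, most LII libraries lie at higher meningeal and endothelial sums than LDeep libraries. The circled libraries, chosen in part by their meningeal sum, lie with the other layer.

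The layer difference itself changed with age for 8 members, where 8.80% of all tested genes were called (4.83% larger and 3.97% smaller). It was larger at the older ages for 6, Myh11, Angpt2, Angpt1, Des, Vwf, and Ramp2, and smaller for 2, Emcn and Erg. Without the 3 MEC libraries 19 members were called (12.4% of genes), 5 with a larger (6.62% of genes) and 14 with a smaller difference (5.78%) at the older ages. With the replicate number as a fixed block in edgeR, 11 members were called (11% of genes).

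Myh11 changed most. At P2 LII and LDeep had lowest, median, and highest levels of 2.56, 2.93, and 3.35 and of 2.04, 2.67, and 4.27, an LFC of -0.01 ± 0.25 (BH 0.994), or 0.32 ± 0.26 (BH 0.394) without the 3 libraries. At P23 they were 5.63, 6.14, and 7.01 against 3.32, 3.52, and 3.79 (LFC 2.78 ± 0.29, BH 1.31e-10), and at P45 5.64, 6.35, and 7.73 against 3.87, 4.20, and 4.71 (2.32 ± 0.24). Overlapping layers at P2 had thus become separate ones. The difference of the layer LFC was 1.89 ± 0.26 (BH 5.36e-07), and 1.73 ± 0.25 without the 3 libraries. The corresponding values for Acta2 and Tagln, 0.77 and 0.83, were not called. For Des it was 0.93 ± 0.31 (BH 0.0434), a call that was lost without the 3 libraries (0.61, BH 0.104). The Des call was also lost in 12 of 16 fits that each left out 1 replicate number.

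The angiopoietins diverged between the layers. Angpt2 in LDeep had a median of 1.86 at P2, 2.49 at P9, and 0.89 at P45, while in LII the medians were 3.03, 3.41, and 3.79. At P23 its LII libraries ran from 3.70 to 4.39 and those of LDeep from 1.28 to 1.90. The layers overlapped at P2 (not without the 3 libraries, 2.49 to 3.52 against 0.60 to 2.36) and P9 and did not at P23 and P45. Its layer LFC grew from 1.08 ± 0.28 at P2 to 3.10 ± 0.33 at P45 (difference of older and younger ages 1.77 ± 0.31, BH 5.89e-05). Without the 3 libraries the P2 value was 1.49 ± 0.27 and the difference 1.57 ± 0.29 (BH 7.42e-05). Angpt1 had medians of 3.32, 3.68, 3.37, and 3.62 in LII, and of 3.02, 2.83, 1.77, and 2.02 in LDeep. The lower medians at the older ages thus stood in LDeep, and the layer LFC differed by 1.24 ± 0.20 between older and younger ages (BH 1.04e-05), and by 1.29 ± 0.20 without the 3 libraries.

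Vwf had LII medians of 5.97 at P2, 7.11 at P23, and 6.92 at P45, and LDeep medians of 5.25, 5.54, and 4.58 (difference of the layer LFC 0.84 ± 0.22, BH 0.00831, and 0.79 ± 0.23 without the 3 libraries). The layers overlapped at P45, where the LDeep libraries ran from 4.13 to 6.08 and the LII libraries from 5.74 to 7.31. Ramp2 was level between the layers at P2 (medians 5.80 and 5.83) and higher in LII at P23, 4.80 against 3.88 (difference 0.67 ± 0.18, BH 0.0109, and 0.62 ± 0.14 without the 3 libraries).

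Emcn, endomucin, a sialoglycoprotein of venous and capillary endothelium, narrowed its layer difference. Its LII medians were 3.27, 3.45, 3.35, and 3.37 at the 4 ages, while those of LDeep were 1.14, 2.29, 2.84, and 3.06. The layers overlapped at each age with all libraries, and at P2 did not without the 3 MEC libraries, where the lowest LII library was at 2.70 and the highest LDeep library at 1.801. The layer LFC was 1.79 ± 0.27 at P2 (BH 2.77e-06) and 0.35 ± 0.27 at P45 (BH 0.378), a difference between older and younger ages of -1.01 ± 0.29 (BH 0.017). Without the 3 libraries the P2 value was 2.42 ± 0.24 and the difference -1.32 ± 0.23 (BH 2.52e-05). Erg had a difference of -0.67 ± 0.20 (BH 0.0218), and of -0.90 ± 0.15 without the 3 libraries, with LDeep medians of 1.54, 2.07, 2.94, and 2.46.

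The members added without the 3 libraries were Egfl7, Abcb1a, Abcg2, Tek, Sox17, Tie1, Pdgfb, Acvrl1, Fli1, Esam, Rgs5, and Cd34, each with a smaller difference at the older ages. Tek, for example, had a value of -0.73 ± 0.12 (BH 1.00e-05) there, against -0.51 with all libraries, and Rgs5 one of -0.57 ± 0.12 (BH 0.000332). Beside these, 6 of 8 oligodendrocyte markers had a smaller LII to LDeep ratio at the older ages (0 larger), as had 1 of 16 meningeal fibroblast markers (2 larger), and, without the 3 libraries, 6 of 16 (2 larger). Of 10 arachnoid markers 5 had a larger ratio and 1 a smaller. Their part was not tested.

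**Figure D4:**
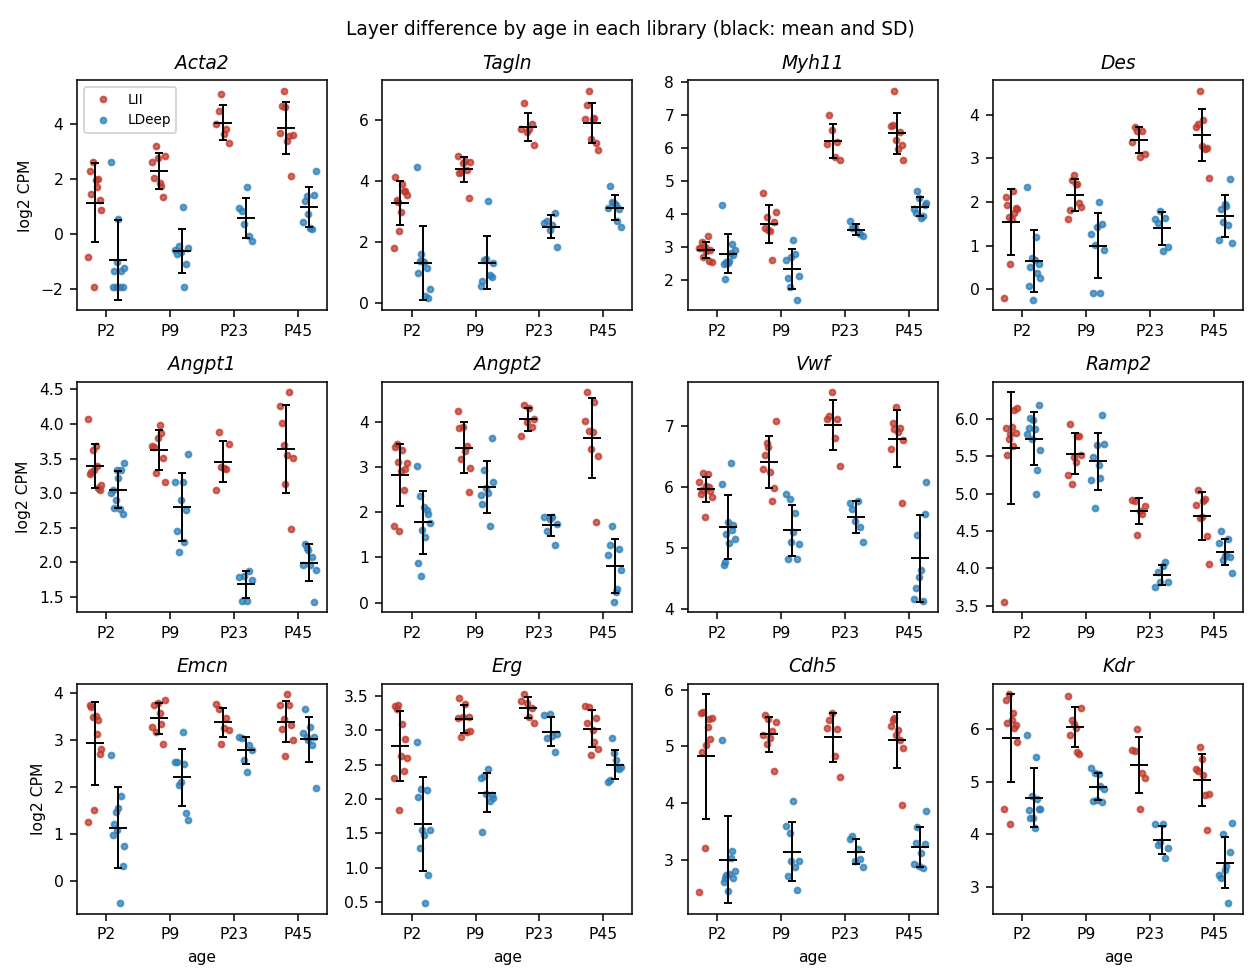
Level (log2 CPM) of 12 members in each library by age, with LII in red and LDeep in blue and mean and SD in black. The layers separate with age for Myh11, Angpt1 and Angpt2, draw together for Emcn, and stay apart for Cdh5 except for single libraries at P2.

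Between the regions the members did not stand out from all tested genes. Of 42 members 5 were called between MEC and LEC, 4 higher and 1 lower in the MEC, where 15.4% of all genes were (8.87% higher and 6.53% lower). The count was 7 without the 3 MEC libraries (17.2% of genes) and 6 with the replicate number as a fixed block (18.3%). Plvap, found in fenestrated and immature endothelium, had the largest LFC, 0.61 ± 0.14 (BH 0.00126), with a lowest, median, and highest level of -0.48, 1.55, and 3.02 over the 32 MEC libraries and of -0.49, 1.00, and 2.13 over the 32 LEC libraries. Cd34 (0.34 ± 0.082, BH 0.00216), Abcc9 (0.28 ± 0.063, BH 0.000977), and Pecam1 (0.22 ± 0.068, BH 0.017) were also higher in the MEC. Pgf was higher in the LEC (-0.46 ± 0.15, BH 0.0307, a call lost in 7 of 16 fits that each left out 1 replicate number), with a MEC median of 0.56 and an LEC median of 0.96. The ranges of the 2 regions overlapped widely for each of these genes.

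In other lists 2 of 16 barrier genes, 2 of 10 Wnt and transcription genes (Lef1, a Wnt effector, 0.46), 3 of 21 angiogenic genes (the arterial ligand Efnb2, -0.70), and 1 of 17 mural genes (Mcam, an adhesion molecule, 0.33) were called between regions.

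No member was called for a layer difference that differed between MEC and LEC, where 1.25% of all genes were. In edgeR 4 of 42 members had an unadjusted p below 0.05, and DESeq2 (1.79% of genes called) and limma (1.21%) each called 0, with 6 at an unadjusted p below 0.05. Without the 3 MEC libraries edgeR called 0 as well (1.93% of genes), with 4 at an unadjusted p below 0.05.

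The change with age differed between the regions for Cd34 and Plvap, 2 of 42 members, where 4.38% of genes were called (2.08% with a larger change in the MEC, the direction of both). The count was 2 as well without the 3 MEC libraries (6.35% of genes) and with the fixed block (5.96%). At P2 Cd34 ran from 2.19 to 4.17 in the MEC (median 3.03) and from 2.70 to 4.64 in the LEC (3.55), and at P9 from 3.22 to 4.54 (3.85) and from 3.35 to 4.66 (3.99). At P23 the MEC ran from 4.51 to 5.30 (5.10) and the LEC from 3.44 to 4.52 (4.15), and at P45 the MEC from 4.90 to 5.60 (5.26) and the LEC from 3.82 to 5.21 (4.38). The regions thus overlapped at the younger ages, and the MEC was higher by median at P23 and P45. The age LFC was larger in the MEC by 1.03 ± 0.16 (BH 3.04e-05), and by 1.00 ± 0.14 without the 3 MEC libraries.

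Plvap had MEC medians of 0.62, 1.74, 1.71, and 2.31 at P2, P9, P23, and P45 and LEC medians of 0.96, 1.09, 1.00, and 1.00, with overlapping ranges at every age. Its age LFC was larger in the MEC by 0.94 ± 0.28 (BH 0.0421), and by 0.94 ± 0.29 (BH 0.0377) without the 3 MEC libraries. The call was lost in 11 of 16 fits that each left out 1 replicate number, with values from 0.79 to 1.15. The change is also not called in either layer alone (LII 1.07, BH 0.155, and LDeep 0.79, BH 0.524). Of 8 oligodendrocyte markers 5 had a larger age LFC in the MEC as well, with sums of 3667 to 12449 CPM in the MEC and 817 to 4368 CPM in the LEC at P45, and 0 of 16 meningeal markers were called. Their part was not tested.

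**Figure D5:**
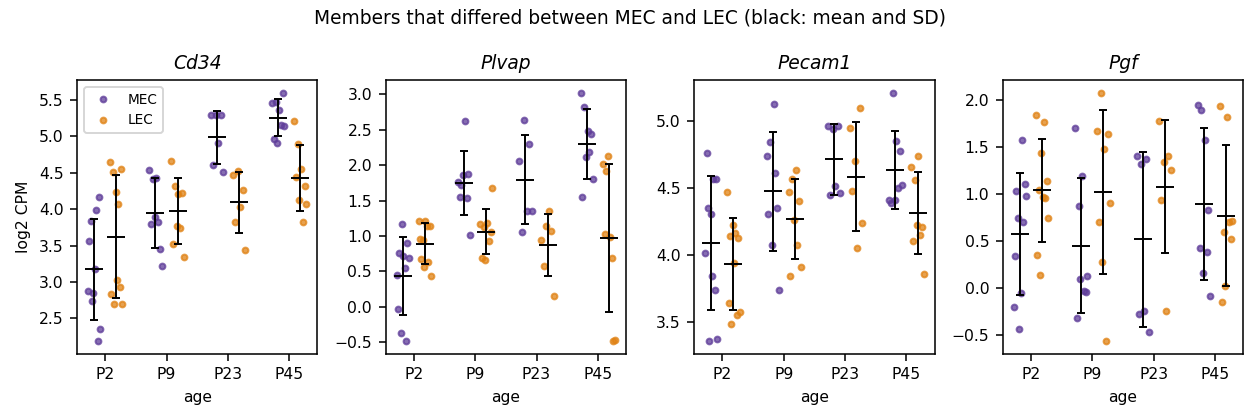
Level (log2 CPM) of Cd34, Plvap, Pecam1 and Pgf in each library by age, with MEC in purple and LEC in orange and mean and SD in black. The MEC libraries of Cd34 rise from a median of 3.03 at P2 to 5.26 at P45 and those of the LEC from 3.55 to 4.38.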

How the data were processed

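Total RNA-seq counts per gene in 64 libraries of rat MEC and LEC were used. Per the labels, the authors processed reads with bcl2fastq 1.8.4, Trimmomatic 0.33, and STAR 2.4.0 on Rn6, and the deposited values are raw counts per RefSeq gene from featureCounts. Libraries were grouped by region, layer, and age from the labels. Genes passing filterByExpr (12521 of 17260) were fitted in edgeR 4.0.16 (R 4.3.3) with TMM scaling and 1 mean per group (16 means, no block), by the quasi-likelihood test with BH adjustment over all tested genes, two-sided, at 0.05. SE is the LFC divided by the square root of F. DESeq2 1.42.0, limma 3.58.1 (voom), other filters, subsets of samples, and fits without each replicate were alternatives. The code was tested on simulated counts.

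The members and gene lists were chosen with earlier results of these data known. Named in full, among members of at least 1 mean CPM, were per role the 2 called members with the largest age and layer LFC, the 1 with the largest region LFC, and every member called for an interaction. Of other lists, the called gene with the largest LFC was named, except where it is not reported here. Counts of the 100 replicate pairs differed by more than sampling noise (chi-square per degree of freedom at least 3.08). The methods call the replicates biological, but the labels do not say which libraries share animals, so p-values measure the spread between these samples. The count total of a library limits the precision of low genes such as Acta2, Plvap, and Pgf.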

Additional observations from a re-analysis of the deposited data

Results flagged for a closer look

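Within groups of 4 or 5 libraries, 22 of 300 gene and group combinations had a library far from the others by Dixon's test, where chance gives about 1 in 20. Values are log2 CPM. MEC LDeep P2 replicate 1 was high for Acta2 (2.61), Cdh5 (5.11, others 2.45 to 3.03), Fli1 (3.58), and Tagln (4.44), and MEC LII P2 replicate 1 was low for Ramp2 (3.56, others 5.51 to 5.81). Both went against their layer labels in marker genes. MEC P9 replicate 4 was low for Cd34 in LII (3.46) and LDeep (3.22), Flt1 in LII (5.19), and Kdr (4.62) and Tie1 (4.24) in LDeep. The meningeal sum of this replicate was 652 CPM in LII (1164 to 2236 in the other libraries of its group). In LDeep it was 291 CPM (185 to 519). MEC LII P45 replicate 4, with a low meningeal sum, was low for Cdh5 (3.96) and Angpt2 (1.78, others 3.77 to 4.03).

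Single values stood out elsewhere. High were Abcg2 in LEC LII P9 replicate 2 (4.45), Vegfc in LEC LII P2 replicate 5 (3.09), Acta2 in LEC LDeep P2 replicate 3 (0.55), Fli1 in LEC LDeep P9 replicate 2 (2.93), Tie1 in MEC LII P45 replicate 2 (5.50), and Plvap in MEC LII P9 replicate 3 (2.63). Low were Acta2 in LEC LDeep P9 replicate 3 (-1.91, which stands for 0 counts), Cdh5 (5.03) and Tie1 (5.55) in LEC LII P2 replicate 3, and Abcc9 in LEC LII P2 replicate 1 (4.44).

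The layer difference was larger at the older ages by a tested interaction for Myh11 (1.89), Angpt2 (1.77), Angpt1 (1.24), Des (0.93), Vwf (0.84), and Ramp2 (0.67), and smaller for Emcn (-1.01) and Erg (-0.67). Of 16 fits that each left out 1 replicate number, 12 lost the call for Des, 3 that for Erg, and 1 each those for Vwf and Ramp2. The age difference was larger in the MEC for Cd34 (1.03) and Plvap (0.94), where 11 of 16 such fits lost the call for Plvap.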

How the results depend on the processing

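Most counts of called members moved little between settings. The exceptions follow. For P9 against P2 the count was 12 in LII samples alone and 7 at an LFC above 0.5, for P23 against P9 it was 15 in MEC samples alone, and for P45 against P23 it was 2 with DESeq2, 3 with limma and quantile normalization, 2 without MEC LII P2 replicate 1, and 6 without the 3 MEC P2 libraries, an alternative chosen after seeing the data. In MEC samples alone the layer counts at P2, P9, P23, and P45 were 4, 10, 17, and 14. Between regions the count was 3 with at least 10 counts in every sample, 2 in LII, 1 in LDeep, and 1 at an LFC above 0.5. For the layer difference between ages it was 4 with at least 10 counts, 3 in MEC, 14 in LEC, and 19 without the 3 libraries, and for the age difference between regions 1 without the filter, 1 with at least 10 counts, 1 in LII, and 0 in LDeep. The causes were not tested, beyond the fewer samples or genes in such fits.

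Leaving out 1 replicate number at a time gave 31 to 33 called members for age, 13 to 24 for P9 against P2, 24 to 29 for P23 against P9, 1 to 4 for P45 against P23, 39 to 42 for the layers, 27 to 36, 35 to 37, 22 to 36, and 22 to 33 for the layers at P2, P9, P23, and P45, 4 to 6 for the regions, 6 to 15 for the layer difference between ages (15 without replicate 1 at P2), and 1 to 2 for the age difference between regions. These ranges stand without the share of all genes called in each fit and do not compare the members with other genes. The age LFC of Angpt1 changed sign, to 0.020, in LII samples alone.

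Replicate numbers were checked as a pairing. Between layers of 1 region, regions of 1 layer, and across both, the mean correlation of deviations was 0.133, 0.126, and 0.143 over 32 same-number pairs and -0.045, -0.039, and -0.045 over 100 pairs of different numbers. Of the same-number pairs 17, 18, and 20 were above 0.1, and 33 and 31 of 64 libraries correlated best with their own number in the other layer and region. These values are a hint that libraries of 1 number share animals, which the labels do not state. With the replicate number as a fixed block in edgeR, 41 members were called between layers (24.3% of genes higher in LII), 6 between regions (18.3%), 11 for the layer difference between ages (11%), and 2 for the age difference between regions (5.96%). As a random block in limma the counts were 42, 6, 12, and 2. These stand without the share of all genes called in that fit and do not compare the members with other genes.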
